A study of Mus musculus with 7 samples.

Results

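Sarcomeric myosin heavy chains are the motor subunits of the muscle thick filament, and 9 of the 37975 genes in the deposited expression table belong to the family as taken here. They were found by gene symbol: Myh1, Myh2, Myh3, Myh4, Myh6, Myh7, Myh7b, Myh8 and Myh13, each with 1 row and each tested by the authors. The cells were mouse primary myoblasts, cultured from satellite cells sorted out of mice aged 4 to 6 weeks. Polyadenylated RNA was sequenced from 1 sample of growing myoblasts and 1 of myotubes kept for 48 hours in differentiation medium (5% horse serum), and each of these cultures bore an empty retroviral vector. MyoD, a helix-loop-helix transcription factor that drives myogenesis, was mapped by chromatin immunoprecipitation (ChIP) in 1 sample of 2-day myotubes, for which the labels name no vector. The sources used here give neither strain nor genotype, and 4 histone ChIP samples were not analysed here.

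A sarcomeric heavy chain carries the ATPase head that pulls on actin and the coiled-coil rod that packs into the thick filament, and its isoform sets the speed of contraction. Mammalian muscle passes from an embryonic chain (Myh3) and a perinatal chain (Myh8) to adult fast chains, IIa from Myh2, IIx from Myh1 and IIb from Myh4, while Myh7 encodes the slow chain that is also the beta chain of the heart. Myh6 encodes the cardiac alpha chain, Myh13 the extraocular chain and Myh7b a slow tonic chain. The genes of embryonic, perinatal, fast and extraocular chains stand in a row on chromosome 11, those of the cardiac chains side by side on chromosome 14, and Myh7b on chromosome 2.

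Levels are FPKM, a read density per transcript length and library size, so that genes of different length can be compared. Each condition had 1 value per gene, no difference had a replicate check, and the depth is unknown. A gene is termed called where the authors' test marked it significant (q up to 0.05), and each standard error (SE) was worked back from that test's statistic. The label of the cells was checked against markers. In the authors' deposited table the myotube markers Myog, Ckm, Acta1 and Tnnt3 were 4 of 4 called higher, the satellite cell markers Pax7 and Myf5 were called lower, and of the other myoblast markers Des was called higher and Myod1 was not called. Fibroblast, endothelial and immune markers summed to 7.90, 4.69 and 12.0 FPKM in myoblasts and to 1.47, 0.289 and 2.83 FPKM in myotubes. The 4 smooth muscle and pericyte markers summed to 302 and 2034 FPKM, of which Acta2, an actin that muscle precursors also make, gave 227 and 2025 FPKM. Rgs5, a pericyte marker, was called lower, from 73.1 to 7.72 FPKM, Myh11 was at 1.56 and 0.449 FPKM and Cspg4 at 0.303 and 1.07 FPKM, neither called, and the part of these markers in the results was not tested. In bulk RNA a change in the share of cells that had differentiated and a change in RNA per cell cannot be told apart.

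All 9 heavy chain genes rose. In the authors' deposited table, 9 of 9 were called higher in myotubes and 0 lower, where 6.52% of the 15966 tested genes were called higher. Centring on the median of tested genes, which is -0.41, moves every fold change up, so it could not put these calls in doubt. After it, 9 of 9 were called higher, where 9.94% of tested genes were higher and 10.2% lower. At a q of at most 0.01, 8 of 9 passed (4.68% of tested genes), the exception being Myh7b. With 1 FPKM added to both values, 8 of 9 were at least 4-fold higher (3.38%), and Myh7b, 4.96-fold higher without that addition, then had a log2 ratio of 1.44. The summed level of the family was 209 FPKM in myoblasts and 3650 FPKM in myotubes, a ratio of 17.4. The 6 genes of chromosome 11 rose 14.05-fold to 22.6-fold, and the 3 genes of chromosomes 14 and 2 rose 4.96-fold to 7.01-fold. The median of the authors' log2 fold changes was 4.00 over the members and -0.41 over the 15416 tested genes above 0 in both conditions.

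The embryonic chain led in both conditions. Myh3 stood at 111 FPKM in myoblasts and 2362 FPKM in myotubes, where it ranked 73 of 15966 tested genes by level. Its log2 fold change in the authors' deposited table was 4.41 (SE 0.61, q = 6.39e-11). The perinatal gene Myh8 was at 15.8 FPKM in myoblasts and 341 FPKM in myotubes, with a log2 fold change of 4.43 (SE 0.86, q = 6.87e-06) in the authors' deposited table. Both developmental genes were thus higher in myotubes by nearly the same ratio, and Myh3 stood 7.03 times above Myh8 in myoblasts and 6.93 times above it in myotubes.

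Among the adult fast genes, Myh1 (IIx) had the highest level. It was at 35.8 FPKM in myoblasts and 503 FPKM in myotubes, with a log2 fold change of 3.81 (SE 0.42, q listed as 0) in the authors' deposited table. Myh2 (IIa) was at 6.09 and 97.6 FPKM, and its log2 fold change was 4.00 (SE 0.70, q = 4.23e-07) in the authors' deposited table. Myh4 (IIb), the chain of the fastest limb fibres, was at 4.02 FPKM in myoblasts and 90.6 FPKM in myotubes, and its log2 fold change was 4.50 (SE 0.54, q = 4.66e-14) in the authors' deposited table. That value was the highest of the 9, but with 1 FPKM added to both values the log2 ratio of Myh4, 4.19, was below those of Myh3 (4.40) and Myh8 (4.35). In myotubes Myh2 and Myh4 stood at nearly the same level, with a ratio of 1.08, and Myh1 stood 5.15 times above Myh2. Myh13, the extraocular gene, was at 2.00 FPKM in myoblasts and 38.6 FPKM in myotubes, a log2 fold change of 4.27 (SE 0.70, q = 5.51e-08) in the authors' deposited table.

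The slow and cardiac genes rose by smaller ratios. Myh7 was at 28.0 FPKM in myoblasts and 171 FPKM in myotubes, with a log2 fold change of 2.62 (SE 0.53, q = 1.84e-05) in the authors' deposited table. Its neighbour Myh6 was at 6.05 and 42.5 FPKM, with a log2 fold change of 2.81 (SE 0.59, q = 4.03e-05) in the authors' deposited table. The 4 cardiomyocyte markers summed to 2.11 FPKM in myoblasts and 0 in myotubes: Nkx2-5 and Myl7 were listed at 0 in both conditions, Nppa went from 0.119 FPKM to 0, and Tnni3 was at 1.99 and 0 FPKM. Myh7b was the lowest of the family at 0.763 FPKM in myoblasts and 3.78 FPKM in myotubes, with a log2 fold change of 2.31 (SE 0.79, q = 0.0185) in the authors' deposited table. Its RefSeq gene overlaps the end of Trpc4ap on the opposite strand, which stood at 76.4 and 94.9 FPKM. No source used here says whether the counting used strand, so reads of this pair may not be told apart.

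**Figure D1:**
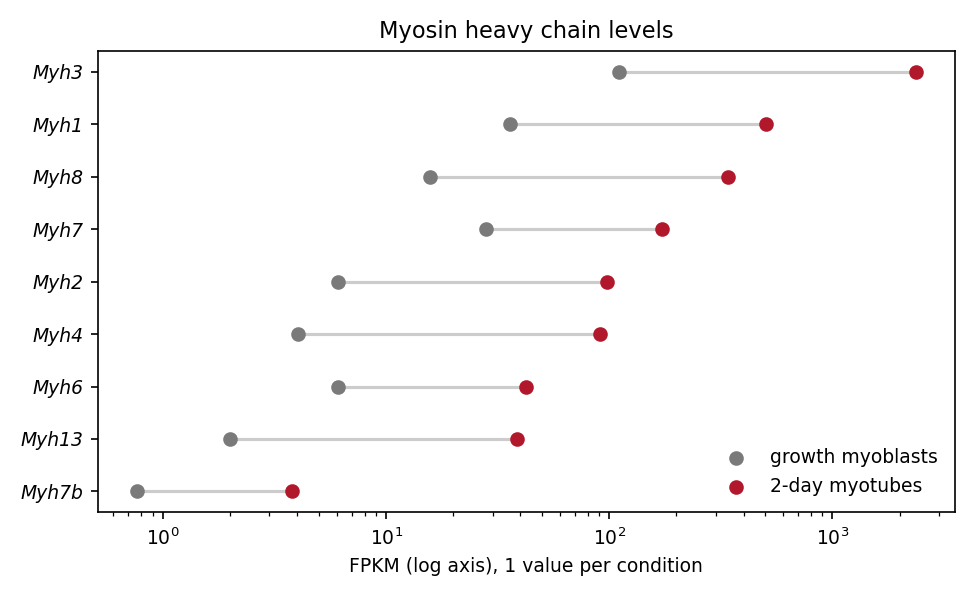
FPKM of each myosin heavy chain gene on a log axis, 1 value per condition, with growing myoblasts in grey and 2-day myotubes in red, ordered by the myotube level. All 9 red points lie to the right of their grey point, from Myh7b at 0.763 and 3.78 to Myh3 at 111 and 2362.

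The fold changes were set against their errors for all 36 pairs of members. All 15 pairs within chromosome 11 differed by less than 1 combined SE, and the widest of these, Myh4 over Myh1, was 0.68 on the log2 scale with an interval of 1.96 SE from -0.66 to 2.03. The genes of chromosome 11 exceeded those of chromosomes 14 and 2 by 1.00 to 2.19 on the log2 scale in all 18 pairs, but the difference passed 1.96 combined SE in 5 of them: Myh4 over Myh7b, Myh7 and Myh6, and Myh3 over Myh7b and Myh7. Myh3 exceeded Myh7 by 1.80 (interval 0.21 to 3.39), and Myh4 exceeded Myh7 by 1.88 (0.39 to 3.37). These intervals take the errors of the 2 genes as independent and are not adjusted for the number of pairs. The fast genes, Myh1, Myh2, Myh4 and Myh8 in particular, are close copies in their coding sequence. No source used here says how reads matching several of them, or both Myh7 and Myh6, were shared out. The separate levels of these genes are thus uncertain.

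**Figure D2:**
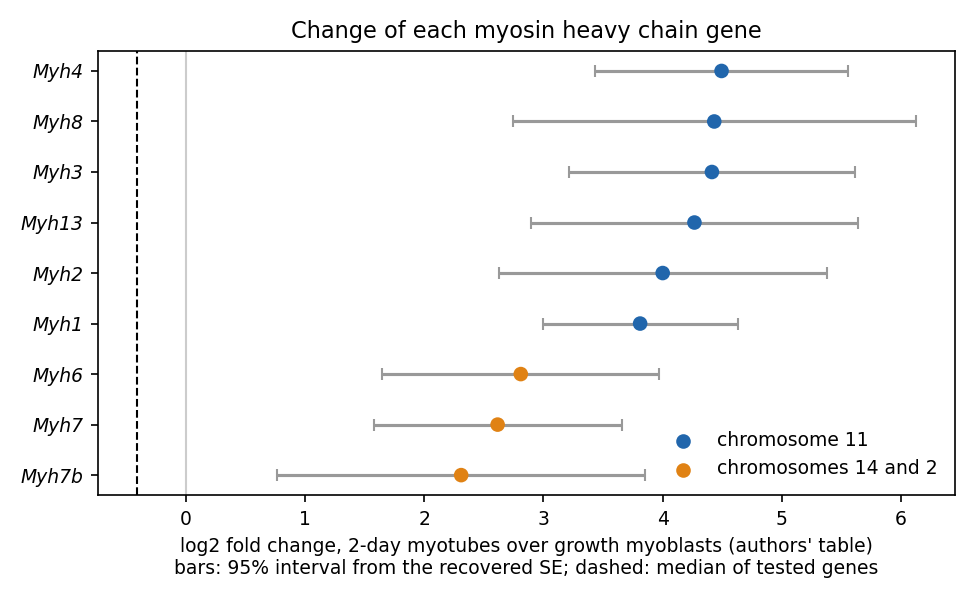
Log2 fold change of each gene (points) in the authors' deposited table with bars of 1.96 SE recovered from the authors' test, a 95% interval. The 6 genes of chromosome 11 (blue) lie between 3.81 and 4.50 and the others (orange) between 2.31 and 2.81, with overlapping bars, and all lie above the median of tested genes at -0.41 (dashed).

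Embryonic Myh3 gave most of the sarcomeric heavy chain RNA in both conditions. It made up 52.9% of the summed FPKM of the 9 genes in myoblasts and 64.7% in myotubes. Myh1 made up 17.1% and 13.8%, and Myh8 7.53% and 9.34%. Myh7 made up 13.4% in myoblasts and 4.69% in myotubes. Myh7 stood above Myh8 in myoblasts and below it in myotubes, the only change among the leading 4 genes in order of level. The underlying difference in log2 fold change between Myh8 and Myh7, 1.82, had an interval of 1.96 SE from -0.17 to 3.81. The adult fast genes Myh1, Myh2 and Myh4 together gave 21.9% in myoblasts and 18.9% in myotubes, and the developmental genes Myh3 and Myh8 gave 60.5% and 74.1%. The table holds no error for a single level, so neighbours in the order could not be compared beyond their spread and the shares carry no error.

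**Figure D3:**
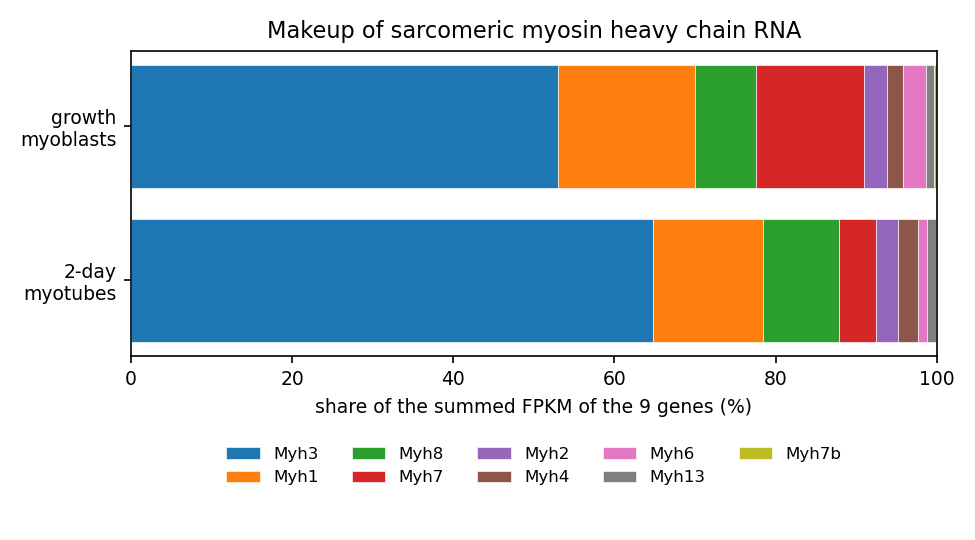
Share of each gene in the summed FPKM of the 9 sarcomeric heavy chain genes, in percent, for the 2 conditions. Myh3 (blue) takes 52.9% in myoblasts and 64.7% in myotubes, and Myh7 (red) shrinks from 13.4% to 4.69%.

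The proximal promoters of 4 fast and perinatal genes share a run of sequence, and they are printed to show it. The windows of Myh3 and Myh13 lack this sequence, and both genes had fold changes within the range of these 4 genes. The Myh13 locus in mm9 begins well before the RefSeq start used, so its window may not be its proximal promoter. Any link of the run to the rise was not tested. The windows run from 250 bases before to 50 bases after the start given by RefSeq on GRCm38.p6, on the plus strand. They are chr11:67199852-67200151 for Myh1, chr11:67170777-67171076 for Myh2, chr11:67237562-67237861 for Myh4 and chr11:67276874-67277173 for Myh8. Capitals mark a run found in all of them and, where present, a match to the MEF2 consensus, the site bound by the MEF2 partners of MyoD.
Myh1: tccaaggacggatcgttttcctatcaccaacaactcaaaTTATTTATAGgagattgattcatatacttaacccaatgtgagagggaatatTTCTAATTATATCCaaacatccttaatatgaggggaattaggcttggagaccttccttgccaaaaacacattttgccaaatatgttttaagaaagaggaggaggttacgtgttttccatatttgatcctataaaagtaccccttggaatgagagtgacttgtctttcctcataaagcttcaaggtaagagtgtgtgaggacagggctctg
Myh2: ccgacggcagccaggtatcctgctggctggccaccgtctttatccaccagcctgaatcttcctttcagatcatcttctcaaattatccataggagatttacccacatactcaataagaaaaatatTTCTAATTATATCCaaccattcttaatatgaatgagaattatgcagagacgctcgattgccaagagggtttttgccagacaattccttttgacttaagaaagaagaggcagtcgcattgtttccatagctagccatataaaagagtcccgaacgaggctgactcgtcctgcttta
Myh4: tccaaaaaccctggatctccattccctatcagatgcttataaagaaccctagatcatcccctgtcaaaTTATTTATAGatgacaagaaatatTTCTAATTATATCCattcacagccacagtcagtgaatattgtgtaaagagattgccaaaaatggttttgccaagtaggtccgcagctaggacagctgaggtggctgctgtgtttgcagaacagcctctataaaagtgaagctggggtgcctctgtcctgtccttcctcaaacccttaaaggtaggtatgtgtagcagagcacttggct
Myh8: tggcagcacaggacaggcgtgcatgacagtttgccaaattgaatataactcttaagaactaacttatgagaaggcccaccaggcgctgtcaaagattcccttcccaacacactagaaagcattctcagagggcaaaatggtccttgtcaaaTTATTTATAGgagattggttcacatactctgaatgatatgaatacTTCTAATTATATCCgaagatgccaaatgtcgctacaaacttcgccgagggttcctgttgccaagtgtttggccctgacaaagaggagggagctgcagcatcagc

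The run TTCTAATTATATCC, 14 bases long, was the longest shared by these 4 windows, and on both strands of 32544 distinct promoter windows of 300 bases it was found in 4, or 0.0123%, these same genes. It begins 160 bases before the start in Myh1, 125 in Myh2, 158 in Myh4 and 54 in Myh8. Myh1, Myh4 and Myh8 also share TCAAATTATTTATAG, found in 3 windows (0.00922%), which overlaps their MEF2 match. The runs were sought after the sequences had been read and were picked as the longest shared by these windows, so their presence there was fixed. Runs this long are rare in windows of 300 bases whatever their letters, and no expected count was computed. All motifs were searched on both strands. A MEF2 match was present for 3 of the 9 members, against 3.16% of all windows. The E-box CANNTG, the kind of site that MyoD binds, was present for 7 of 9 members, against 72.3% of windows, and was not found for Myh1 and Myh2. Of the CANNTG matches, CAGCTG was present for Myh4 alone (16.4% of windows), CAGGTG for Myh7 and Myh7b (20.3%). The TEAD motif CATTCC was present for 4 members (14.6%) and the CArG box for Myh4 and Myh13 (1.64%). The CArG box of Myh13 lies 22 bases after the RefSeq start, which falls inside its locus. That match and the E-boxes of Myh13 may thus not be in its promoter.

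The window of Myh3, chr11:67078050-67078349 on the plus strand of GRCm38.p6, is shown for the gene with the highest level and the most peaks, with its single E-box CANNTG in capitals, 191 bases before the start. The MyoD peak nearest the start ended before this window began, so the E-box shown lies under no listed peak.
Myh3: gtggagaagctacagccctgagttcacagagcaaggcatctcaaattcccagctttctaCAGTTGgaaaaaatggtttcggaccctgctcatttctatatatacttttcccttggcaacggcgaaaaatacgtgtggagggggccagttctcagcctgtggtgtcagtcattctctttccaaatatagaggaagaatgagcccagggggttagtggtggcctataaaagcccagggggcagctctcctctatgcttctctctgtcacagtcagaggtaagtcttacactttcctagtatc

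MyoD peaks were looked for in or within 10 kb of each gene's locus, in the mm9 coordinates of the deposited files. Of the 9 members, 8 had a summit there, against 38.8% of tested genes and 58.5% of the 1041 tested genes called higher in the authors' deposited table. These shares depend on how long a locus is, and the members' loci ran from 22636 bp for Myh4 to 81174 bp for the merged locus of Myh7b. The 8 members shared 13 distinct peaks, with 7 to 45 tags, a median of 29 where the median of all 10756 peaks was 14, and 6.52-fold to 41.1-fold enrichment. Myh3 alone held 6 of the 13, with 17 to 45 tags, and the other peaks had 7 to 39, so this median leans on 1 gene. Tags, enrichment and false discovery rate (FDR) are the authors' values for each peak, from 1 ChIP library against 1 control. Of the 13, 5 had an FDR of at most 5%, as did 2086 of all 10756 peaks. A summit inside the locus was found for 4 members (27.5% of tested genes), and a peak within 10 kb at that FDR for 4 members (11.7%). Myh2 and Myh1 count in the former by a summit of their merged locus that lies between the genes.

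Myh3 had 6 of the peaks, a number reached by 2.01% of tested genes. Its locus is chr11:66891801-66915793. The summit nearest its start lay 645 bp before it, in the peak chr11:66890919-66891445, with 31 tags, 18.3-fold enrichment and an FDR of 3.95%. A further peak lay 3070 bp before the start, with 30 tags and an FDR of 23.3%. Inside the locus lay a peak of 32 tags, 10771 bp from the start, and one of 17 tags, 17115 bp from it. The highest tag count of the family was 3640 bp beyond the end of the locus, in chr11:66919086-66919673, with 45 tags, 23.1-fold enrichment and an FDR of 3.85%, rank 326 of 10756 by tags. The neighbouring peak chr11:66920389-66921044 lay 4888 bp beyond the end, with 29 tags, 30.3-fold enrichment and an FDR of 3.25%. MyoD peaks of Myh3 thus lay before, inside and after the gene, and 3 of 6 passed the stricter FDR.

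The adult fast genes had fewer. Myh2 and Myh1 share a merged locus, chr11:66984528-67051075, with 3 other genes of the table, so the same peaks count for both. This locus begins at Myh2. A pair of summits lay 7188 bp and 5991 bp before it, with 14 and 18 tags and FDRs of 7.80% and 8.65%. By RefSeq bounds this pair lay more than 10 kb from Myh1 itself. The peak chr11:67012738-67013385 lay inside the merged locus, with 23 tags, 20.0-fold enrichment and an FDR of 3.57%. With RefSeq bounds shifted to mm9, its summit lay between the end of Myh2 and the start of Myh1, close before Myh1 and inside neither gene. Myh4, at chr11:67051313-67073948, had no summit within 10 kb, and the nearest summit, 38127 bp away, was this same peak. Myh8, at chr11:67090625-67122136, and Myh13, at chr11:67135159-67185088, had 1 peak between them, chr11:67127279-67127753, with 31 tags, 10.4-fold enrichment and an FDR of 10.7%. Its summit lay 5232 bp beyond the end of the Myh8 locus and 7791 bp before that of Myh13.

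**Figure D4:**
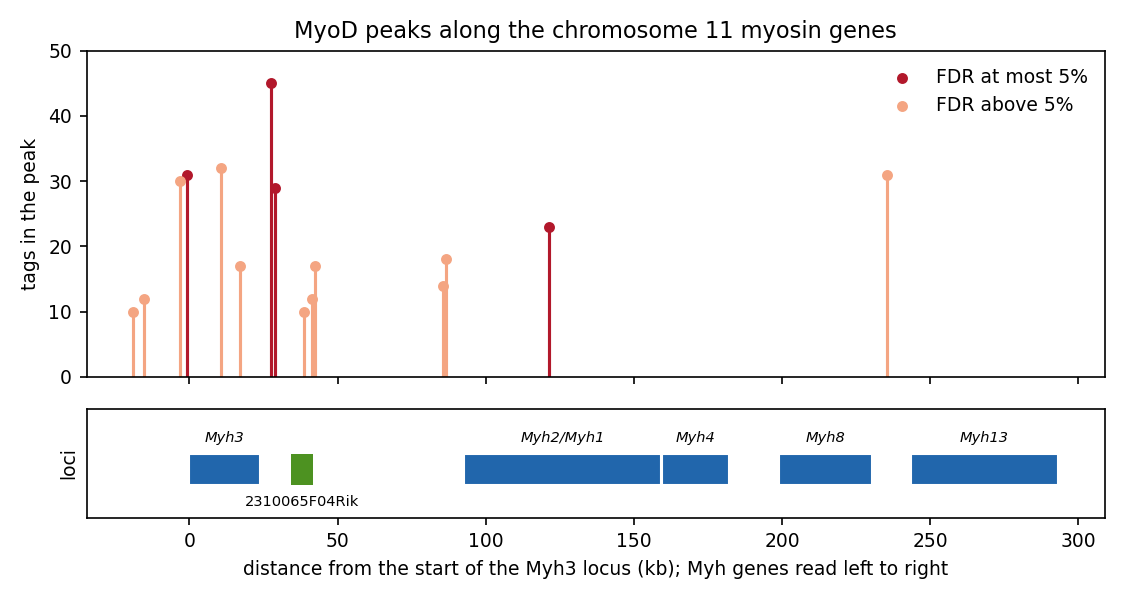
MyoD peaks by tags (stems, dark where the FDR is at most 5%) against distance in kb from the start of the Myh3 locus, above the loci of the 6 myosin heavy chain genes (blue) and of 2310065F04Rik (green). Peaks crowd around Myh3, the Myh2 and Myh1 locus has 3 within 10 kb, and a stretch of 114 kb between the peak inside that locus and the peak ahead of Myh13 holds none.

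Peaks at the cardiac pair had few tags. Myh6, on the minus strand at chr14:55560757-55585764, held a summit 20715 bp downstream of its start with 7 tags, the fewest of any listed peak, 20.5-fold enrichment and an FDR of 23.0%. Myh7, on the minus strand at chr14:55589524-55613471, had a summit 7702 bp upstream of its start with 8 tags, 27.7-fold enrichment and an FDR of 18.4%. The merged locus of Myh7b, chr2:155436947-155518120, shared with Trpc4ap, had a peak 4667 bp before its lower end. That peak, chr2:155431870-155432555, had 39 tags, 41.1-fold enrichment, above 98.4% of all peaks, and an FDR of 2.64%. The lowest member in RNA thus lay beside the peak with the highest enrichment of the 13.

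Introns of these genes carry microRNAs that target muscle transcripts, Mir208a in Myh6, Mir208b in Myh7 and Mir499 in Myh7b. Their mature strands from RefSeq (GRCm38.p6) are shown with the seed, bases 2 to 8, in capitals.
mmu-miR-208a-3p: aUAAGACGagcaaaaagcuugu
mmu-miR-208b-3p: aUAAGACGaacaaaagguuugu
mmu-miR-499-5p: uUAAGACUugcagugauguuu
The Mir208 pair share the seed UAAGACG, and the seed of Mir499 is UAAGACU. All 3 genes were listed at 0 in both conditions and were not tested, while their hosts rose. The values are for the genes in polyadenylated RNA, and the mature strands were not measured.

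The family was set beside its partners. The other class II heavy chains of the table, mostly cytoplasmic and smooth muscle motors, were not among the genes that rose. In the authors' deposited table, 0 of 4 tested were called higher and 2 lower, where 6.52% of tested genes were called higher and 17.3% lower. For 4 genes, 0 called higher is near the share of all genes. Myh9 fell from 499 to 157 FPKM (log2 fold change -1.66, SE 0.56, q = 0.0169) and Myh10 from 124 to 41.5 FPKM (-1.58, SE 0.43, q = 0.00186) in the authors' deposited table. Relative to the median of tested genes Myh9 was no longer called, with q = 0.103. Myh14 was at 1.06 and 1.38 FPKM and Myh11, the smooth muscle chain, at 1.56 and 0.449 FPKM, and neither was called. Myh15 was at 0.0298 and 0.0483 FPKM and was not tested. Of the summed FPKM of these 5 genes and the sarcomeric genes, the sarcomeric genes gave 25.1% in myoblasts and 94.8% in myotubes.

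Sarcomeric light chains, which bind the neck of the heavy chain, rose with it. Among 5 tested in the authors' deposited table, 5 were called higher, by log2 fold changes of 3.71 to 4.42, where 6.52% of all tested genes were called higher. Myl3 and Myl7 were at 0 in myoblasts and untested. Mylpf, the fast regulatory light chain, rose from 1816 to 33258 FPKM (log2 fold change 4.19, SE 0.45, q listed as 0) in the authors' deposited table. Myl4, the embryonic and atrial chain, rose from 494 to 10550 FPKM, and Myl1, the fast essential chain, from 512 to 6696 FPKM. The summed level of the list was 13.9 times that of the heavy chains in myoblasts and 14.2 times in myotubes. Non-sarcomeric light chains had 0 of 4 called higher and 1, Myl9, called lower (428 to 131 FPKM) in the authors' deposited table. For 4 genes these counts lie near the shares of all tested genes, 6.52% higher and 17.3% lower. Myl12a was at 788 and 1392 FPKM, not called. Relative to the median of tested genes Myl12a was called higher (q = 0.0023).

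Proteins that bind or align the thick filament had 9 of 9 tested members called higher in the authors' deposited table, where 6.52% of all tested genes were. Their median difference in log2(FPKM + 1) was 3.30, where that of all tested genes above a mean of 1 FPKM was -0.37. Mybph, a myosin binding protein, was at 105 and 2449 FPKM, next to the values of Myh3. Myom2, which crosslinks myosin at the M-band, rose from 46.3 to 1101 FPKM, Mybpc1, the slow myosin binding protein C, rose from 31.4 to 484 FPKM and Obsl1, an obscurin relative, from 80.0 to 204 FPKM in the authors' deposited table.

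Myosin needs chaperones to fold, and ubiquitin ligases of the MuRF family act on it. In the authors' deposited table, 4 of 7 tested were called higher and 2 lower, where 6.52% of all tested genes were called higher and 17.3% lower. Unc45b, the muscle myosin chaperone, rose from 5.56 to 161 FPKM (log2 fold change 4.85, SE 0.55, q listed as 0) in the authors' deposited table. Its general relative Unc45a was called lower, from 40.6 to 17.2 FPKM (q = 0.0167), as was Hsp90aa1, its chaperone partner, from 699 to 331 FPKM (q = 0.0128), in the authors' deposited table. Relative to the median of tested genes neither remained called, with q = 0.161 for Unc45a and q = 0.186 for Hsp90aa1. Trim54, Trim55 and Trim63 were the others called higher, and Trim63, also known as MuRF1, rose from 2.60 to 60.4 FPKM. Unc45a, Trim63 and Smyd1 were named after their values were seen. The authors' test failed for Smyd1, a myosin chaperone and methyltransferase, which was at 52.7 and 334 FPKM, and Smyd2 was at 73.7 and 64.3 FPKM, not called.

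Several regulators of fibre type rose. Among 19 tested rows of the authors' deposited table, 9 were called higher and 2 lower, where 6.52% of all tested genes were called higher and 17.3% lower, so the lower calls were no more frequent than among all genes. Myog rose from 130 to 1207 FPKM, Mef2c from 15.4 to 221 FPKM and Mef2d from 63.2 to 137 FPKM in the authors' deposited table. Six4, a homeodomain transcription factor, fell from 28.2 to 7.85 FPKM (log2 fold change -1.85, SE 0.38, q = 2.86e-05) in the authors' deposited table. Relative to the median of tested genes, 1 regulator was called lower (10.2% of all tested genes). Six4 was named after its value was seen. Myod1, at 895 and 293 FPKM, missed the threshold in the authors' deposited table.

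Most listed fast and slow isoforms of muscle proteins, including calcium handling proteins such as Atp2a1 and Casq2, rose. Mylpf, Myl1, Myl2 and Myl4 are also among the light chains above. In the authors' deposited table, 6.52% of all tested genes were called higher and 17.3% lower. Of 9 tested fast isoforms, 8 were called higher and 0 lower, with a median difference in log2(FPKM + 1) of 4.14. Slow isoforms had 6 of 8 tested rows called higher and 0 lower, with a median of 3.80, and Tnnc1 entered by separate rows, each called higher. Tnnc2, fast troponin C, rose from 311 to 7453 FPKM and Tnni1, slow troponin I, from 467 to 6568 FPKM in the authors' deposited table. Actn3, the fast actinin, was at 169 and 550 FPKM and Tpm3, a slow tropomyosin gene, at 245 and 144 FPKM, and neither was called, though relative to the median of tested genes Actn3 was called higher (q = 0.0473). Cardiac and embryonic isoforms had 3 of 4 tested called higher, Myl4, Actc1 and Tnnt2, and 1, Tnni3, called lower in the authors' deposited table. Actc1, cardiac actin, rose from 280 to 6148 FPKM and Tnnt2, cardiac troponin T, from 162 to 1981 FPKM. With 1 value per condition these differences between lists were not tested.

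**Figure D5:**
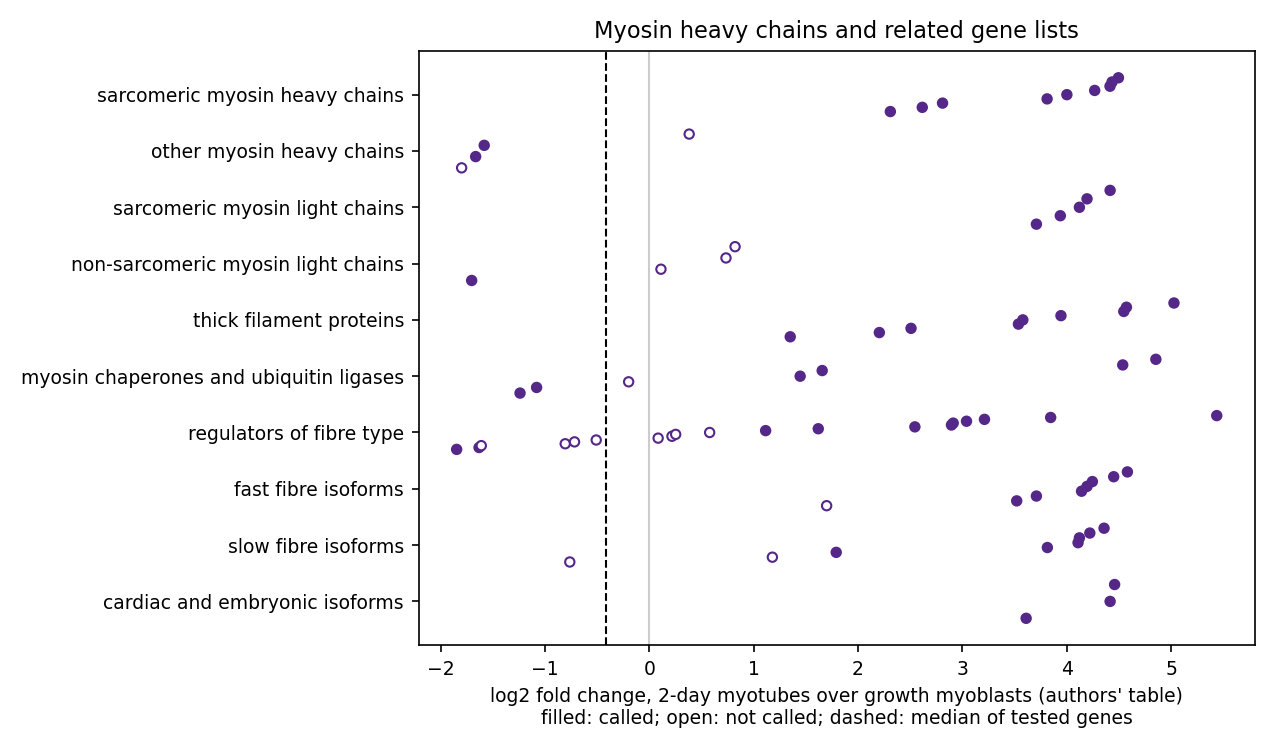
Log2 fold change of each tested gene above 0 in both conditions, by list, from the authors' deposited table (filled where called, open where not). The sarcomeric heavy chains lie between 2.31 and 4.50, beside sarcomeric light chains at 3.71 to 4.42, while other heavy chains lie between -1.80 and 0.38.

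The genes closest to each member were found by the distance between pairs of log2(FPKM + 1) values over the 2 conditions. Nearest to Myh3 were Mybph (distance 0.0948), Atp2a1 (0.287) and Tmem8c (0.472). Nearest to Myh1 were Mybpc1 (0.189), Cav3 (0.298) and Cox6a2 (0.474), and nearest to Myh8 were Tceal7 (0.159), C130080G10Rik (0.22) and Tmod1 (0.226). Nearest to Myh4 were R3hdml (0.138), Asb2 (0.260) and Slc2a4 (0.302). Myh7 lay nearest to C1qtnf3 (0.0694), Baiap2l1 (0.129) and Ccdc109a (0.209), and Myh6 to Fxyd1 (0.0394), 1500017E21Rik (0.0971) and Trdn (0.123). For Myh2 the nearest were Fn3k, Dpep1 and Braf, for Myh13 Hist2h2aa2, Atf3 and Bex4, and for Myh7b Wnt4, Gcnt1 and Gpr126. A likeness over 2 values is weak, and all of these genes, like the members, were called higher by the authors.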

How the data were processed

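Of 7 samples, 1 in each group by the labels, 3 were used: the myoblast RNA and the 2-day myotube RNA, both with empty vector, and the MyoD ChIP of 2-day myotubes. The label of the MyoD sample points to an earlier sample. The labels' protocol states sequencing in duplicates, and the sources used here do not say how these were combined. Expression values are FPKM as deposited, in the layout of a Cuffdiff gene table. The submitters' processing notes name Cuffdiff, CASAVA 1.7.0, MACS 1.3.7 and mm9. No source used here names the aligner, the annotation, the strand setting or the handling of reads with several matches. Each p-value and q-value is the authors', for 15966 tested genes. The deposited columns of log2 fold change and test statistic were read as scores, since a gene at 0 in either condition has a placeholder there, which was left out. The 2 deposited copies were identical and 1 was used.

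MACS was run on 1 ChIP library against 1 control, per the file headers, with 4049890 and 4371189 unique tags and a p-value threshold of 1.00e-05. The sources used here do not describe the control. Tags per peak are counts, fold enrichment is a ratio, FDR is a percent and the p score is 10 times a negative log10, per the file headers. Coordinates are printed from 1 in mm9, and the summit is the start plus its offset minus 1.

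The SE is the deposited log2 fold change over the deposited test statistic, without sign, and p-values recomputed from it differed from those deposited by at most 2.68e-06. No differential test was run, since each condition has 1 value per gene. Medians of lists used log2((FPKM 2-day + 1)/(FPKM growth + 1)) over tested genes whose mean FPKM reached 1. The join of peaks and the centred test were tested on simulated data. Python 3.11.15 and pandas 2.3.3 were used. Members and lists were chosen with earlier results of these data known. All members were named, and from each list at most 4 called genes and 1 uncalled gene with the highest mean FPKM, and the 3 nearest genes of each member. Alternatives moved the zero point, the q and fold thresholds, the pseudocount, the distance and FDR of peaks and the members summed. Sequences of promoters and microRNAs are from RefSeq on GRCm38.p6 and were not joined to mm9 peaks. Only for Myh1, Myh2 and Myh3 were RefSeq bounds set beside peaks, by the shift between builds. Peak sequences and proteins were not used here. A result for 1 gene of the lists is not reported here.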

Additional observations from a re-analysis of the deposited data

How the results depend on the processing

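No paired analysis was possible because each condition has 1 sample, and for the same reason no sample could be left out. A planned comparison of protein sequences was not run. All 9 members were called higher after centring the log2 fold changes on the median of tested genes, which by construction could not lower them. At a q of at most 0.01, 8 passed, the exception being Myh7b (q = 0.0185). On log2(FPKM + 1), 8 passed a 4-fold threshold, and Myh7b missed it at 1.44. Each log2 ratio moved by less than its SE with a pseudocount of 0.1 or relative to the median. With a pseudocount of 5 it moved beyond its SE for Myh4 (3.41), Myh13 (2.64) and Myh7b (0.61), and Myh4, which led in the ratio without a pseudocount, was then below Myh3 (4.35), Myh8 (4.06) and Myh1 (3.64). Members with a MyoD peak fell from 8 to 4 with the summit in the locus (merged for Myh2 and Myh1), to 5 within 5 kb and to 4 with an FDR of at most 5%. They were 9 within 50 kb, 8 by overlap of the peak interval, and 7 of 8 when distinct loci were counted. The share of all tested genes was not computed for these settings or for 5 kb, and a wider distance takes in more genes.

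Without Myh3, Myh1 made up 36.3% and 39.0%, Myh8 16.0% and 26.5% and Myh7 28.4% and 13.3% of the remaining members in myoblasts and myotubes. The sarcomeric share of all heavy chains was then 13.6% and 86.5%, an alternative chosen after seeing the data. Centring, also added for the lists after seeing the data, left 1 of the other heavy chains called lower (Myh10), 2 non-sarcomeric light chains called higher (Myl12a and Myl12b), 0 chaperones or ligases lower and 1 regulator of fibre type lower (Six4). Centring shifts each fold change up by 0.41 on the log2 scale, which by its construction removes lower calls and adds higher ones. The depth of the RNA is unknown, and the peaks of Myh6 and Myh7 rest on 7 and 8 tags.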

Other observations

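The stretch of 68.7 kb between the Myh3 locus and the merged locus of Myh2 and Myh1 held 7 MyoD summits. Of these, 2 lay inside the locus of 2310065F04Rik, a long noncoding RNA gene on the minus strand by RefSeq, with 10 and 12 tags and FDRs of 23.8% and 19.2%. A further summit with 17 tags lay just beyond it. The gene itself was at 0.216 FPKM in myoblasts and 2.04 FPKM in myotubes and missed the threshold in the authors' deposited table (log2 fold change 3.24, SE 1.46, q = 0.0909). Another transcript of the merged locus, 9430073C21Rik, rose from 0.245 to 1.83 FPKM in the authors' deposited table (log2 fold change 2.90, SE 0.88, q = 0.00693).

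Genes beside the myosin loci were also read. Next to Myh3, Sco1, a copper chaperone of cytochrome oxidase, rose from 16.9 to 34.9 FPKM (log2 fold change 1.05, SE 0.40, q = 0.0389) in the authors' deposited table, while Tmem220, at 2.28 and 2.04 FPKM, and 2310004I24Rik, at 31.0 and 29.7 FPKM, were not called. On chromosome 14 Ngdn, beside Myh7, was at 11.8 and 13.7 FPKM and Efs, near Myh6, at 2.25 and 2.11 FPKM, both not called, while Pabpn1, farther out, fell from 89.2 to 44.0 FPKM (log2 fold change -1.02, SE 0.29, q = 0.00414) in the authors' deposited table. Next to the Myh7b locus, Edem2 was at 20.0 and 13.8 FPKM, not called.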
